A study of Homo sapiens with 28 samples.

Results

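Interferon-stimulated genes were followed in 2 non-small cell lung cancer lines treated with DNA methyltransferase inhibitors. The 46 genes were chosen by name, as genes known to be induced by interferon, and a member was any probe set of the array whose annotation gives one of these symbols. Of the 46, 44 had a probe set that names no other gene, 70 probe sets in all of the 22277 on the array, while STAT2 and IFI30 had none and were not analysed here. A549 is a lung adenocarcinoma line, and H1299 a large cell carcinoma line that lacks p53. Each line was treated for 48 h with the vehicle dimethyl sulfoxide, with azacitidine (AZA) at 0.3, 1 or 3 µM, or with decitabine (DAC) at 0.3, 1 or 3 µM, with fresh drug every 24 h. That gave 14 groups of line, drug and dose with 2 one-colour arrays each, 28 arrays in all. The label of replicate 1 of decitabine at 3 µM in A549, and of no other array, marks it as a repeat. What was repeated is not stated, and any effect of it on the values of that group was not tested. Precision is limited by these small numbers of arrays. Separate cultures for the 2 replicates are not stated anywhere in the labels, so the p-values measure only the spread between these samples, which may be technical.

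Cells that meet viral nucleic acid in the cytosol make type I and type III interferons, which bind their receptors and, through JAK kinases, activate ISGF3, a transcription factor complex that holds IRF9. ISGF3 enters the nucleus and binds a short repeated motif, the interferon-stimulated response element, in the promoters of a large set of genes that block virus entry, translation and replication. Azacitidine, a ribonucleoside, and decitabine, the corresponding deoxyribonucleoside, both trap DNA methyltransferases after their incorporation into DNA. Loss of methylation is known in other studies to raise transcripts of endogenous retroviruses, whose double-stranded RNA can engage the same sensors, a response called viral mimicry. The question here was whether these genes had moved by 48 h, in which line, with which drug and at which dose.

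The stretches of 250 bases before the annotated start are shown for 5 members, chosen because the results below turn on them: IFITM3 and ISG15, which rose with decitabine in A549, IFIT1, which fell with azacitidine, IFI44L, which stayed below the array median, and IFI16, which rose with azacitidine at 3 µM in H1299. The sequences are from RefSeq (GRCh38.p14), written 5′ to 3′ along the gene's strand, with capitals for matches to the core of the response element, GAAANNGAAA, on this strand or TTTCNNTTTC for the opposite one, where overlapping matches run together.
IFITM3 (chr11:320861-321110, - strand): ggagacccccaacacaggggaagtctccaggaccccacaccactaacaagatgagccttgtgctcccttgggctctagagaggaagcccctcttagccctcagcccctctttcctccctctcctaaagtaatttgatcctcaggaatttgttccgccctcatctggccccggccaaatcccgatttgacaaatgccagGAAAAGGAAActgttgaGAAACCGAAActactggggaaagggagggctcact
ISG15 (chr1:1013247-1013496, + strand): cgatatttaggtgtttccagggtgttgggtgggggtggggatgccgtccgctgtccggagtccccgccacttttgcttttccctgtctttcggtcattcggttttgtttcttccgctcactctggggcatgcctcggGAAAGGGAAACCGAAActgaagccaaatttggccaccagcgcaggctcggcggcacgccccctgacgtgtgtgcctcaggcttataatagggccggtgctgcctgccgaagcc
IFIT1 (chr10:89392373-89392622, + strand): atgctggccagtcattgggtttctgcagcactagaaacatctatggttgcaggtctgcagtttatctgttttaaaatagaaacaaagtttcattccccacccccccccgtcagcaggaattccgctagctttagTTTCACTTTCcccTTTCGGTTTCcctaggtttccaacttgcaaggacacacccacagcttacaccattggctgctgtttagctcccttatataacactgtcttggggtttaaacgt
IFI44L (chr1:78620198-78620447, + strand): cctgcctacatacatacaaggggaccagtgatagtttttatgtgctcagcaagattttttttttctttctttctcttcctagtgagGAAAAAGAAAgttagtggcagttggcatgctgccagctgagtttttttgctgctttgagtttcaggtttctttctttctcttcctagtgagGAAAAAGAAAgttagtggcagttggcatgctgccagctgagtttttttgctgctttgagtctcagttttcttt
IFI16 (chr1:159008741-159008990, + strand): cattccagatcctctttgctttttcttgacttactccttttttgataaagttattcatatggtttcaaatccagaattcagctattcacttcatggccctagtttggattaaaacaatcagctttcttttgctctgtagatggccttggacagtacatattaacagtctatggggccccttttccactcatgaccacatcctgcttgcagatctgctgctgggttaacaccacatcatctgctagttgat
The motif was present 2 times in the windows of IFITM3, ISG15, IFIT1 and IFI44L and in neither of the 2 windows listed for IFI16. RefSeq starts were listed for 35 of the 46 members. Of these, 20 held the motif in the window of at least 1 listed start, against 3.71% of the 27305 genes searched in the same way. They were 12 of the 24 members with a listed start that were bright enough to test and 8 of the 9 that were not. The ISG15 window held 17 CpG dinucleotides, those of IFITM3 and IFIT1 4 each, and those of IFI44L and IFI16 none, beside a median of 11 over all genes. A match is a description of the letters, and no match says only that these letters are not in the window. No value in the deposited data measures methylation or binding at these sites.

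The genes that serve as the usual readout of an interferon response were mostly dim in both lines, with or without drug. A probe set was tested where its signal exceeded the median of the array on at least 2 arrays, which left 29 of the 44 members. The other 15 were BST2, USP18, IFIT2, OAS2, MX1, MX2, GBP1, GBP2, TRIM22, RSAD2, IFI27, IFI44, IFI44L, CXCL10 and CXCL11. Among their 19 probe sets, 17 were above the array median on none of the 28 arrays and 2 on a single array, and their signals ranged from 0.415 to 119 on arrays whose medians were 92.7 to 123. MX1 and MX2 encode GTPases that block virus capsids, RSAD2 encodes the enzyme viperin, and CXCL10 and CXCL11 are chemokines that attract T cells. Fitted without the filter, these 15 genes gave 8 calls in the 12 comparisons of a dose with its vehicle, in TRIM22, CXCL11, GBP1 and IFI27. All 8 came from decitabine. For azacitidine limma gave 0 calls at an adjusted p under 0.05 in each of 6 comparisons, with 0 to 2 genes at an unadjusted p under 0.05. The share of all genes called without the filter was 1.42 to 36.3% in those 6 comparisons and 4.73 to 20.2% in the 6 of decitabine. In H1299 decitabine at 0.3 µM gave 1.05 for CXCL11 and -0.83 for GBP1 (log2), on signals that never passed the array median.

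**Figure D1:**
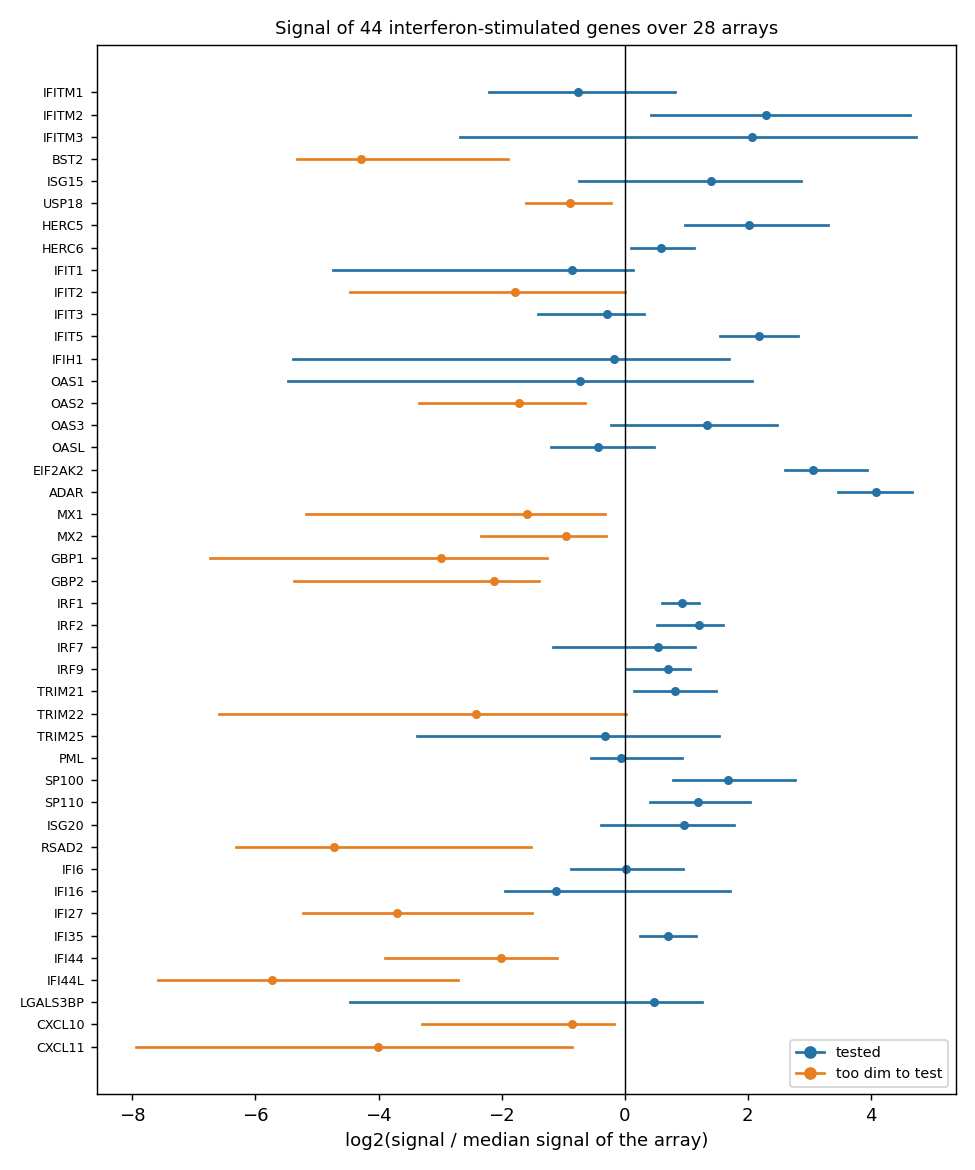
Log2 ratio of the signal to the median signal of the same array for the 44 interferon-stimulated genes with a probe set, with the median over 28 arrays as a point and the range as a line; blue genes were tested and orange genes were too dim to test. The vertical line marks the array median, which 13 tested genes exceeded on all 28 arrays and which 13 of the 15 untested genes never exceeded.

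Most interferon genes were dim as well, while several adaptors were not. Of 14 interferon genes with a probe set, 13 were above the array median on none of the arrays, among them IFNB1, which encodes the interferon that most cells make first, with signals of 1.61 to 22.9 over the 28 arrays. The other, IFNA17, was above it on 16 arrays (28.9 to 171 over the 28) and was called in none of the 12 comparisons with vehicle. Its largest difference from vehicle was -0.65 with decitabine at 1 µM in A549 (adjusted p = 0.286). Of the sensors, TLR3, the endosomal receptor of double-stranded RNA, was above the array median on no array (6.81 to 44.6), and RIGI, the cytosolic sensor of uncapped RNA, on 4. The kinase TBK1 (1204 to 2071), the adaptors MAVS (133 to 780.2) and TRAF3 (645 to 1530), and TANK, IKBKE and IRF3 were above it on all 28, and MYD88 on 22.

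Among the 29 tested members, changes went both ways. Limma gave 107 calls over the 12 comparisons with vehicle, 64 higher and 43 lower. The threshold was an adjusted p under 0.05 (Benjamini-Hochberg over all 8024 genes tested). Within single comparisons 3.45 to 62.1% of the members were called, beside 2.44 to 53.9% of all genes, and the counts are to be read against those shares. In each call the treated arrays did not overlap those of the vehicle. Overlap was not counted over all genes, so it adds no support to the calls. The calls fell in 26 members: 9 were only higher, 7 only lower and 10 went in both directions, while IFIT3, PML and SP110 had none. The comparisons within a line share the same 2 vehicle arrays. For each call 12 alternatives were run, 8 with another setting and 4 that left out 1 array of the compared groups. The settings were quantile and median scaling, a smaller and a larger pseudocount, no filter, no intensity trend, the replicate number as a block and the 25th percentile of the array as a covariate. In these no call changed sign, 53 calls held in each, 29 were lost only where an array was left out and 25 under another setting. Unless another value is given beside it, a difference named below as a rise or a fall is one of the 53.

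In A549, 1 of 29 members was called higher and none lower with azacitidine at 0.3 µM, where 2.44% of all genes were called (1.17% higher). At 1 µM of azacitidine 3 were higher and 6 lower (25.2% of all genes, 13.1% higher), and at 3 µM 9 were higher and 7 lower (38.3%, 22.1% higher). With decitabine 3 were higher and 1 lower at 0.3 µM (7.69%, 4.31% higher), 8 and 2 at 1 µM (16.6%, 9.78% higher), and 9 and 2 at 3 µM (25.8%, 15% higher). The medians of the 29 differences were -0.07, -0.002 and 0.02 (log2) with azacitidine at 0.3, 1 and 3 µM, beside -0.02, -0.01 and 0.06 over all genes. With decitabine they were 0.09, 0.08 and 0.08, beside -0.02, -0.01 and 0.01. Of the 11 calls with decitabine at 3 µM 8 held in each alternative, 7 higher and 1 lower. Without 1 array the count fell to 4 or 2 for azacitidine at 1 µM (without its replicate 2 or vehicle replicate 1), to 10 for azacitidine at 3 µM (its replicate 2), to 2 for decitabine at 0.3 µM (vehicle replicate 1) and to 5 or 6 for decitabine at 1 µM (either of its arrays, or vehicle replicate 2), and it was 2 for azacitidine at 0.3 µM without vehicle replicate 2.

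In H1299, 1 member was called higher and none lower with azacitidine at 0.3 µM (5.67% of all genes called, 2.46% higher), and leaving out any of the 4 arrays ended that call. With azacitidine at 1 µM 9 were higher and 6 lower (35.3%, 19.9% higher), and at 3 µM 10 were higher and 8 lower (53.9%, 32.3% higher). Decitabine gave 6 higher and 3 lower at 0.3 µM (17.8%, 8.9% higher), 2 and 4 at 1 µM (23.4%, 11.8% higher), and 3 and 4 at 3 µM (30.9%, 16.3% higher). At 3 µM 62.1% of the members were called with azacitidine, beside 53.9% of all genes, and 24.1% with decitabine, beside 30.9%. Neither gap was tested. The decitabine counts fell to 5 at 0.3 µM without its replicate 1 or vehicle replicate 1, to 3 at 1 µM without its replicate 2, and to 3 or 4 at 3 µM without either of its arrays or vehicle replicate 1. The median difference of the members with azacitidine was 0.02, 0.15 and 0.16 at 0.3, 1 and 3 µM, beside -0.01, 0.03 and 0.08 over all genes. With decitabine it was -0.004, -0.008 and 0.04, beside -0.02, -0.02 and -0.01.

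**Figure D2:**
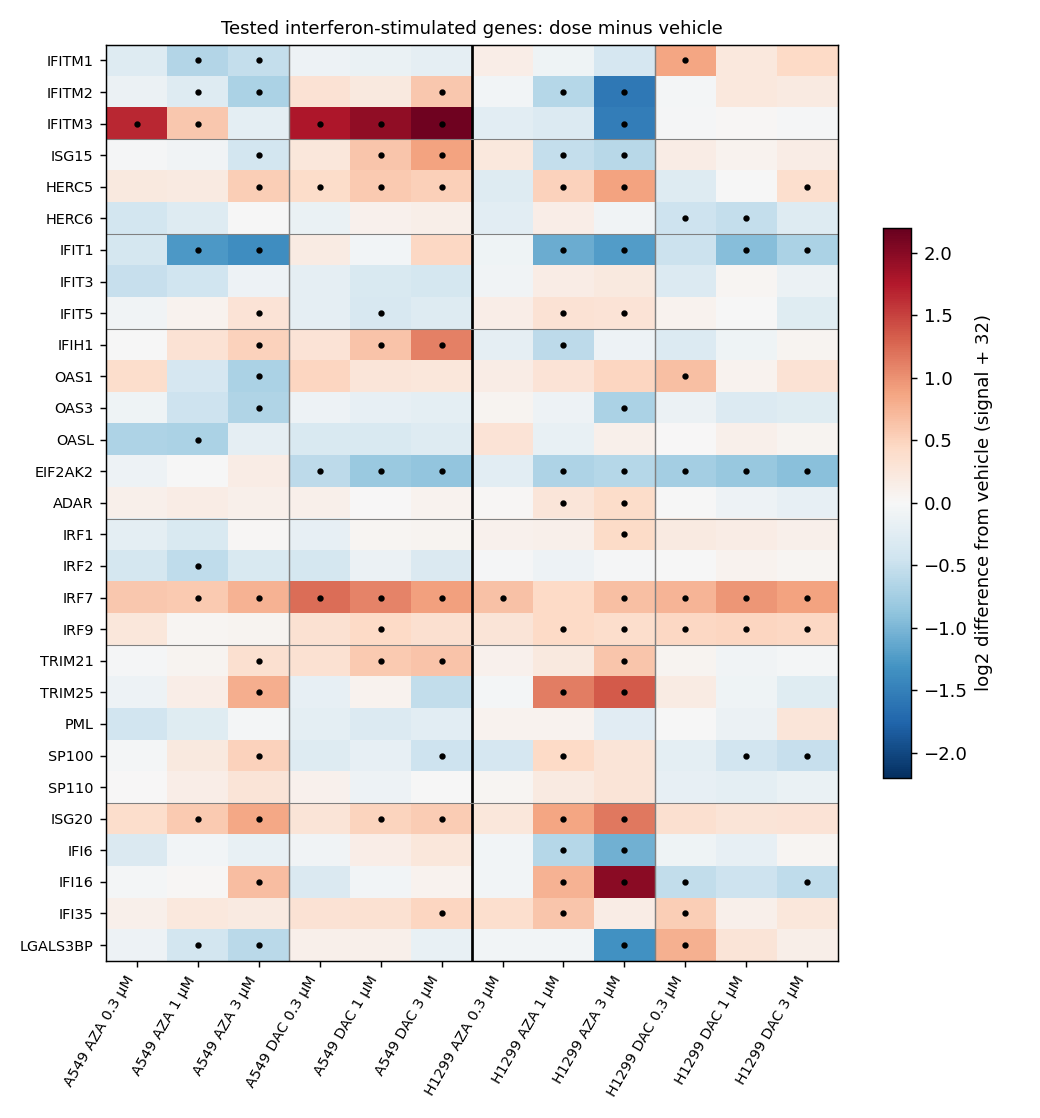
Log2 difference from vehicle, on the log2(signal + 32) scale, of the 29 tested interferon-stimulated genes (rows, grouped by role) in each line, drug and dose (columns, low to high dose); dots mark an adjusted p under 0.05. IFITM3 is high in A549 with decitabine at each dose and with azacitidine at 0.3 µM, IRF7 is high in most columns, and EIF2AK2 is low with decitabine in both lines.

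IFITM1, IFITM2 and IFITM3 encode small membrane proteins that hold virus particles in the endosome or at the cell surface, and the family gave the largest rise and the 2 largest falls among the calls against vehicle. IFITM3 was below the array median in untreated A549 cells and rose with decitabine at each dose. Its signals in A549 were 31.4 and 43.6 with vehicle, then 208 and 202 with decitabine at 0.3 µM, 201 and 275 at 1 µM and 255 and 292 at 3 µM. With azacitidine in the same line they were 201 and 173 with azacitidine at 0.3 µM, 59.1 and 86.4 at 1 µM and 19.0 and 37.7 at 3 µM. All 6 decitabine arrays and both arrays of azacitidine at 0.3 µM were thus higher than both vehicle arrays, and at 3 µM of azacitidine the arrays overlapped those of the vehicle. The differences with decitabine were 1.77 at 0.3 µM, 1.95 at 1 µM and 2.14 (SE 0.15, adjusted p = 1.57e-09) at 3 µM. For azacitidine they were 1.66 (SE 0.15, adjusted p = 1.57e-06) at 0.3 µM and -0.22 at 3 µM, the second with an adjusted p of 0.276. At 1 µM the difference of 0.59 lost its call without vehicle replicate 1 (0.46) or without azacitidine replicate 2 (0.40).

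H1299 held IFITM3 at a high level, and no dose of decitabine was called. Its signals in H1299 were 2181 and 2404 with vehicle, then 2197 and 2278 with decitabine at 0.3 µM, 2143 and 2516 at 1 µM and 2259 and 2256 at 3 µM. With azacitidine they were 1882 and 2024 with azacitidine at 0.3 µM, 1866 and 1856 at 1 µM and 735 and 825 at 3 µM, so that both arrays at 3 µM lay below all other H1299 arrays, a difference from vehicle of -1.52 (SE 0.15, adjusted p = 2.95e-08). IFITM2 fell beside it. In H1299 its signals were 1804 and 1935 with vehicle, then 1776 and 1807 with azacitidine at 0.3 µM, 1186 and 1208 at 1 µM and 626 and 593 at 3 µM, with differences of -0.63 at 1 µM and -1.57 (SE 0.10, adjusted p = 8.79e-11) at 3 µM. Decitabine arrays of H1299 ranged from 1695 to 2349 for IFITM2, and no dose was called.

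In A549 IFITM2 moved apart by drug. Its signals were 299 and 286 with vehicle, then 239 and 294 with azacitidine at 0.3 µM, 239 and 228 at 1 µM and 191 and 147 at 3 µM, with arrays at 3 µM below those of the vehicle (-0.70). With decitabine they were 380.4 and 364 with decitabine at 0.3 µM, 360.5 and 325 at 1 µM and 456 and 454 at 3 µM, all above the vehicle, and the difference passed the threshold at 3 µM (0.59). IFITM1 stayed between 26.3 and 170.2 on the 28 arrays and above the array median on 3 of them, all of H1299 with decitabine. It was thus tested only through groups in which it was high. Its call in H1299 with decitabine at 0.3 µM, 0.87, was lost without decitabine replicate 1 (0.71). In A549 it was called lower with azacitidine at 1 and 3 µM (-0.65 and -0.53), and both calls were lost without vehicle replicate 1 (-0.50 and -0.38). The genes of this family are close to identical over much of their sequence, so the probe sets may share signal among paralogs, and how much was not tested.

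**Figure D3:**
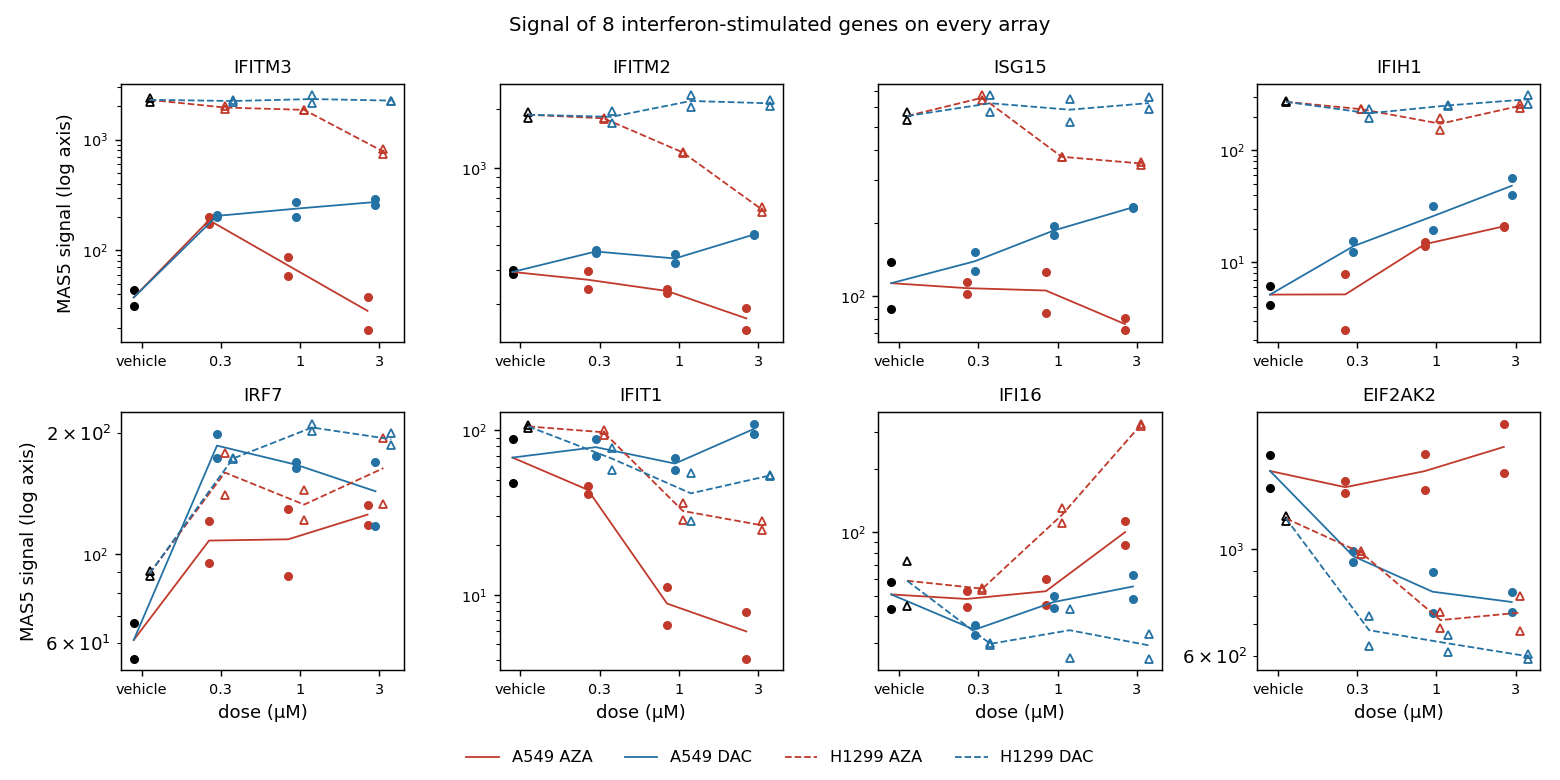
MAS5 signal on a log axis for 8 interferon-stimulated genes, 1 point per array, against vehicle and the doses of 0.3, 1 and 3 µM; filled circles and solid lines are A549, open triangles and dashed lines H1299, red is azacitidine, blue decitabine and black vehicle, and lines join the means of 2 arrays. IFITM3 rises with decitabine in A549, where azacitidine at 3 µM leaves it near the vehicle, IFITM2 and IFITM3 fall with azacitidine at 3 µM in H1299, and IFI16 rises there.

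ISG15 is a ubiquitin-like protein that is attached to newly made proteins during virus infection, HERC5 is the ligase that attaches it in human cells and HERC6 a related protein. ISG15 rose with decitabine in A549 and fell with azacitidine in H1299. In A549 its signals were 138 and 88.0 with vehicle, then 151 and 127 with decitabine at 0.3 µM, 178 and 194 at 1 µM and 231 and 234 at 3 µM, and both arrays at 3 µM were above both of the vehicle, 0.89 (SE 0.15, adjusted p = 0.000223). The difference of 0.61 at 1 µM lost its call without vehicle replicate 2 (0.36) or decitabine replicate 2 (0.56). In H1299 ISG15 was at 532 and 573 with vehicle, then 642 and 672 with azacitidine at 0.3 µM, 374 and 376 at 1 µM and 356 and 348 at 3 µM, which at 3 µM gave -0.61, and no decitabine dose was called there. With azacitidine at 3 µM in A549 its signals were 72.2 and 80.8, a difference of -0.40 that lost its call in 6 alternatives, among them those without vehicle replicate 1 (-0.15) and without either azacitidine array (-0.34 and -0.45).

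HERC5 was called higher in 7 of the 12 comparisons and lower in none. The rises were 0.54 with azacitidine at 3 µM in A549, and 0.50 and 0.89 with azacitidine at 1 and 3 µM in H1299. Its signals in H1299 with azacitidine at 3 µM were 952 and 986, against 523 and 493 with vehicle, the highest of the 28 arrays. HERC5 and ISG15 thus went opposite ways with azacitidine at 3 µM in H1299. HERC6 was above the array median on 28 arrays and was called lower with decitabine at 0.3 and 1 µM in H1299, calls that were lost without vehicle replicate 2 (-0.39 and -0.46) or decitabine replicate 2 (-0.26 and -0.36), and at 0.3 µM also without vehicle replicate 1 (-0.53).

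The IFIT proteins bind viral RNA that lacks the host cap methylation and block its translation. IFIT1 fell with azacitidine in both lines. Its signals in A549 were 88.8 and 47.7 with vehicle, then 41.01 and 45.9 with azacitidine at 0.3 µM, 6.51 and 11.2 at 1 µM and 7.88 and 4.08 at 3 µM. The 4 arrays at 1 and 3 µM were below both vehicle arrays, and the differences were -1.27 at 1 µM and -1.37 (SE 0.20, adjusted p = 1.79e-05) at 3 µM. The decitabine arrays of A549 ran from 57.5 to 109, overlapped the vehicle at 0.3 and 1 µM, and were called at no dose. In H1299 the signals of IFIT1 were 104 and 107 with vehicle, then 94.1 and 100.5 with azacitidine at 0.3 µM, 35.9 and 28.6 at 1 µM and 28.1 and 24.8 at 3 µM, with differences of -1.10 and -1.24 at 1 and 3 µM. With decitabine in H1299 they were 77.7 and 57.1 with decitabine at 0.3 µM, 28.1 and 54.6 at 1 µM and 53.1 and 53.1 at 3 µM, below the vehicle, with a difference of -0.93 at 1 µM that had an adjusted p of 0.0564 without decitabine replicate 1 (-0.67) and one of -0.69 at 3 µM that lost its call without any of the 4 arrays (-0.71 to -0.67). IFIT1 exceeded the array median on 4 arrays only, those of H1299 with vehicle and with azacitidine at 0.3 µM, and on no array of A549. It was thus tested only through groups of H1299 in which it was high. Its differences are those of a dim gene on a scale that draws them toward 0.

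IFIT3, a partner of IFIT1, was called in none of the 12 comparisons, with differences between -0.51 and 0.22. IFIT5, above the array median on all 28 arrays, was called higher in 3 comparisons with azacitidine and lower in 1 with decitabine, by at most 0.35, and lost each call when an array was left out. IFIT2 was too dim to test. No called difference of the 3 tested IFIT genes was above 0.31.

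Among the sensors and effectors of double-stranded RNA, IFIH1 encodes MDA5, the cytosolic sensor of long double-stranded RNA that viral mimicry is known to engage. In A549 it was dim, and it rose with decitabine at 3 µM. Its signals there were 6.12 and 4.14 with vehicle, then 15.4 and 12.4 with decitabine at 0.3 µM, 32.1 and 19.3 at 1 µM and 40.0 and 56.5 at 3 µM, and with azacitidine 7.83 and 2.47 with azacitidine at 0.3 µM, 13.9 and 15.1 at 1 µM and 21.1 and 20.8 at 3 µM. Both arrays of decitabine at 3 µM were above all other A549 arrays, 1.10 (SE 0.16, adjusted p = 3.06e-05). The calls with decitabine at 1 µM (0.63) and azacitidine at 3 µM (0.51) were lost without vehicle replicate 2 (0.59 and 0.47), the one at 1 µM also without decitabine replicate 1 (0.47) and the one at 3 µM without either azacitidine array (0.51 and 0.52). No A549 array reached the array median for IFIH1, which was tested because all 14 H1299 arrays did, and with a pseudocount of 1 in place of 32 the difference at 3 µM of decitabine was 3.01. In H1299 the signals were 270.3 and 274 with vehicle, then 195 and 234 with decitabine at 0.3 µM, 251 and 255 at 1 µM and 311 and 262 at 3 µM, with no call for decitabine. Azacitidine at 1 µM gave 194 and 152 there, -0.57, a call lost without azacitidine replicate 2 (-0.43).

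EIF2AK2, which encodes the kinase PKR that halts translation when it binds double-stranded RNA, was called lower in 8 of 12 comparisons and higher in none. Its signals were 1565 and 1339 with vehicle, then 992 and 942 with decitabine at 0.3 µM, 896 and 736 at 1 µM and 739 and 815 at 3 µM in A549, and 1173 and 1144 with vehicle, then 630.1 and 728 with decitabine at 0.3 µM, 611 and 664 at 1 µM and 607 and 593 at 3 µM in H1299. At 3 µM of decitabine the differences were -0.87 (SE 0.12, adjusted p = 1.31e-05) in A549 and -0.91 (SE 0.12, adjusted p = 4.22e-06) in H1299. Azacitidine gave -0.68 and -0.63 at 1 and 3 µM in H1299 and no call in A549. A second probe set of EIF2AK2 did not bear all of this out. It was called lower with decitabine at 3 µM in A549 (-0.44) and higher with azacitidine at 3 µM in A549 (0.37), and it was called in no comparison of H1299 with vehicle, where decitabine at 3 µM gave -0.25. The EIF2AK2 fall in H1299 therefore rests on 1 of 2 probe sets.

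The OAS enzymes make the messenger that switches on RNase L. OAS1 was seen in A549 alone, above the array median on all 14 A549 arrays and on none of H1299. Its signals in A549 were 276 and 273 with vehicle, then 376 and 361 with azacitidine at 0.3 µM, 218 and 191 at 1 µM and 163 and 152 at 3 µM, and its call at 3 µM, -0.70, was lost without azacitidine replicate 2 (-0.66). A second probe set of OAS1 was called lower at 1 µM (-0.74) and 3 µM (-1.005) of azacitidine. The call of the first with decitabine at 0.3 µM in H1299 (0.66) was lost without any of the 4 arrays (0.60 to 0.73), and OASL, with 1 call, lost it without vehicle replicate 1 (-0.46) or azacitidine replicate 2 (-0.67). OAS3 fell to 358 and 341 with azacitidine at 3 µM in A549, against 565 and 573 with vehicle (-0.66). In H1299 it was at 90.6 and 88.8 with azacitidine at 3 µM, against 142 and 189.8 with vehicle (-0.69, and -0.52 with an adjusted p of 0.0572 without vehicle replicate 2). No OAS gene was called with decitabine in A549. ADAR, which edits double-stranded RNA and hides it from MDA5, rose with azacitidine at 3 µM in H1299, 0.40, and was called in no comparison of A549.

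Of the transcription factors, IRF7, the factor that amplifies interferon transcription, was called higher in 10 of the 12 comparisons. It was below the array median on all 4 vehicle arrays and above it on 22 treated arrays, so it was tested only through the groups in which it was high. In A549 its signals were 54.9 and 67.4 with vehicle, then 173 and 199 with decitabine at 0.3 µM, 164 and 169 at 1 µM and 117 and 169 at 3 µM, and with azacitidine 95.1 and 121 with azacitidine at 0.3 µM, 129 and 88.3 at 1 µM and 132 and 118 at 3 µM. All 6 decitabine arrays were above both vehicle arrays, and the differences were 1.23 (SE 0.18, adjusted p = 0.000125) at 0.3 µM, 1.10 at 1 µM and 0.90 at 3 µM, lowest at the highest dose. Azacitidine at 3 µM gave 0.76 in A549. In H1299 IRF7 was at 88.2 and 90.7 with vehicle, then 174 and 172 with decitabine at 0.3 µM, 211 and 202 at 1 µM and 186 and 199.6 at 3 µM, with differences of 0.75, 0.97 and 0.89. With azacitidine in H1299 the signals were 178 and 141 with azacitidine at 0.3 µM, 144 and 121 at 1 µM and 194 and 133 at 3 µM. All 6 were above the vehicle, but the call at 3 µM, 0.67, was lost without azacitidine replicate 1 (0.44).

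IRF9, the DNA-binding subunit of ISGF3, was called higher in 6 comparisons, with decitabine at each dose in H1299 among them, by 0.38 to 0.46. Each of these calls was lost when at least 1 array was left out, and without H1299 vehicle replicate 1 the 5 values of H1299 were 0.36 to 0.44. IRF1 and IRF2, an activator and a repressor that bind overlapping motifs, had 1 call each, neither of which held in each alternative. 

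Of the TRIM ligases and nuclear body proteins, TRIM25 and TRIM21 rose. TRIM25, which ubiquitinates the sensor RIG-I, was at 99.1 and 90.3 with vehicle, then 90.5 and 91.6 with azacitidine at 0.3 µM, 232 and 257 at 1 µM and 290.2 and 288 at 3 µM in H1299, with differences of 1.13 at 1 µM and 1.34 (SE 0.23, adjusted p = 4.91e-05) at 3 µM. In A549 its signals were 53.3 and 37.0 with vehicle, then 43.2 and 35.9 with azacitidine at 0.3 µM, 75.7 and 35.3 at 1 µM and 91.6 and 111 at 3 µM, and the call at 3 µM, 0.79, was lost without vehicle replicate 2 (0.64) or azacitidine replicate 2 (0.69). With decitabine the signals were 11.2 to 52.5 in A549 and 49.2 to 121 in H1299, and no dose was called. TRIM25 exceeded the array median on 8 arrays, none of them of the vehicle, and so was tested only through treated groups. TRIM21, a cytosolic antibody receptor, rose in A549 with decitabine at 1 µM (0.57) and 3 µM (0.62) and in H1299 with azacitidine at 3 µM (0.62). SP100, a scaffold of the nuclear bodies built by PML, was called higher in 2 comparisons with azacitidine and lower in 3 with decitabine, and lost each call when an array was left out. PML and SP110 were called in no comparison.

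Among the remaining effectors, IFI16, a nuclear sensor of DNA, gave the largest rise in H1299. Its signals were 73.0 and 45.0 with vehicle, then 53.6 and 54.6 with azacitidine at 0.3 µM, 131 and 110.4 at 1 µM and 321 and 327 at 3 µM. The 2 arrays at 3 µM were the highest of the 28, and the difference was 1.99 (SE 0.19, adjusted p = 1.53e-08). At 1 µM it was 0.76, and 0.54 with an adjusted p of 0.0757 without vehicle replicate 2. In A549 the signals were 58.1 and 43.5 with vehicle, then 44.1 and 52.6 with azacitidine at 0.3 µM, 45.2 and 60.01 at 1 µM and 114 and 87.1 at 3 µM, and the call at 3 µM, 0.67, was lost without vehicle replicate 2 (0.55) or azacitidine replicate 1 (0.53). Decitabine arrays of H1299 were at 25.2 to 43.5, below both vehicle arrays, but the calls at 0.3 and 3 µM (-0.54 and -0.56) were lost without vehicle replicate 1 (-0.32 and -0.34) or either decitabine array (-0.65 to -0.47). The gene exceeded the array median on 4 arrays, those of azacitidine at 1 and 3 µM in H1299, so it was tested only through the groups in which it was high. A second probe set of IFI16 gave 1.66 with azacitidine at 3 µM in H1299.

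ISG20, an RNase that degrades viral RNA, rose with azacitidine in both lines. In H1299 its signals were 77.8 and 97.8 with vehicle, then 110.2 and 108 with azacitidine at 0.3 µM, 214 and 161 at 1 µM and 219.7 and 251 at 3 µM, with 0.87 at 1 µM and 1.16 (SE 0.14, adjusted p = 3.62e-07) at 3 µM. In A549 they were 179 and 168 with vehicle, then 227 and 245 with azacitidine at 0.3 µM, 262 and 291 at 1 µM and 309.5 and 372 at 3 µM, with 0.58 and 0.85 at 1 and 3 µM, and all 6 arrays above both vehicle arrays. Decitabine at 3 µM in A549 gave 269 and 273 and a difference of 0.56. A second, dimmer probe set of ISG20 was called higher in all 6 comparisons of A549, by 1.29 to 2.01, and in H1299 only with azacitidine at 1 and 3 µM.

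LGALS3BP and IFI6 fell with azacitidine at 3 µM in H1299, where ISG20 and IFI16 rose. LGALS3BP, a secreted glycoprotein, was at 69.5 and 69.9 with vehicle, then 79.6 and 52.5 with azacitidine at 0.3 µM, 65.6 and 64.8 at 1 µM and 4.8 and 12.2 at 3 µM in H1299, and the arrays at 3 µM were the lowest of the 28 (-1.33 (SE 0.14, adjusted p = 8.74e-08)). The size of this difference depends on the pseudocount, -3.01 with 1 and -0.53 with the larger one in place of 32. In A549 azacitidine at 3 µM gave 142 and 142, against 243 and 218 with vehicle (-0.60). Decitabine at 0.3 µM in H1299 gave 146 and 140.2, against 69.5 and 69.9 with vehicle (0.78). IFI6, a mitochondrial protein that opposes apoptosis, was at 187 and 157 with vehicle, then 170.2 and 156 with azacitidine at 0.3 µM, 105 and 95.4 at 1 µM and 57.8 and 74.4 at 3 µM in H1299. The 4 arrays at 1 and 3 µM were below both vehicle arrays, with -0.62 and -1.06 (SE 0.14, adjusted p = 1.95e-06). In A549 IFI6 was called in no comparison. IFI35 rose with azacitidine at 1 µM (0.61) and decitabine at 0.3 µM (0.53) in H1299.

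Azacitidine and decitabine were compared directly at the same doses, 3 matched pairs in each line and their mean over doses, 8 comparisons in all with p-values adjusted over all genes within each. At 0.3 µM azacitidine was higher for 1 member and lower for 2 in each line, where 5.7% of all genes differed in A549 (2.07% higher) and 6.38% in H1299 (2.36% higher). At 1 µM in A549, azacitidine was higher than decitabine for 2 members and lower for 13 (34.3% of all genes differed, 16.4% higher). Of these 15 calls only 5 held in each alternative, 2 higher and 3 lower, and 6 were lost under quantile or median scaling. At 3 µM azacitidine was higher for 5 and lower for 9 (50.4%, 26.6% higher), and 8 of these 14 calls held, 4 higher and 4 lower. Over the 3 doses in A549 5 were higher and 15 lower with azacitidine (54.4%), where 27.9% of all genes were higher and 26.5% lower, and the median of the members was -0.21 beside 0.02 over all genes. In H1299 azacitidine was higher for 10 and lower for 5 at 1 µM (34%, 19% higher), higher for 11 and lower for 8 at 3 µM (56.3%, 33% higher), and higher for 11 and lower for 7 over doses (54%, 30.9% higher). Without 1 array the A549 count at 1 µM fell to 7 (without azacitidine replicate 2) or 9 (either decitabine array), at 0.3 µM to 0 or 1 (any array of the pair), and in H1299 at 0.3 µM to 1 (decitabine replicate 1). The median in H1299 over doses was 0.03 beside 0.05 over all genes.

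In A549 the drugs stood farthest apart for IFITM3. At 3 µM azacitidine minus decitabine was -2.35 (95% interval -2.67 to -2.04) for IFITM3, -1.82 (95% interval -2.24 to -1.40) for IFIT1, -1.29 (95% interval -1.50 to -1.07) for IFITM2 and -1.28 (95% interval -1.61 to -0.96) for ISG15. TRIM25 (1.34) and EIF2AK2 (1.03) were higher with azacitidine. At 1 µM the difference was -1.36 for IFITM3, -1.21 for IFIT1 and 0.81 for EIF2AK2. At 0.3 µM IFITM3 did not differ past the threshold (-0.11, interval -0.43 to 0.20), and the 3 members that did were IRF7 (-0.64), EIF2AK2 (0.46) and IFITM2 (-0.44), each of which lost its call when 1 array was left out.

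In H1299 the difference at 3 µM was 2.54 (95% interval 2.15 to 2.94) for IFI16 and 1.61 (95% interval 1.12 to 2.09) for TRIM25, both higher with azacitidine. It was -1.76 (95% interval -1.98 to -1.54) for IFITM2, -1.50 for IFITM3, -1.46 for LGALS3BP and -1.10 for IFI6, all lower with azacitidine. At 1 µM TRIM25 (1.22), IFI16 (1.21), SP100 (0.87) and HERC6 (0.68) were higher and IFITM2 (-0.86) lower. The drugs did not differ past the threshold for IFIT3 at any dose, with intervals of -0.24 to 0.81 in A549 and -0.17 to 0.88 in H1299 at 3 µM, nor for OASL, with intervals of -0.32 to 0.49 and -0.34 to 0.47. For IRF9 in H1299 at 3 µM the interval was -0.35 to 0.21. These intervals leave room for differences of the sizes they span.

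**Figure D4:**
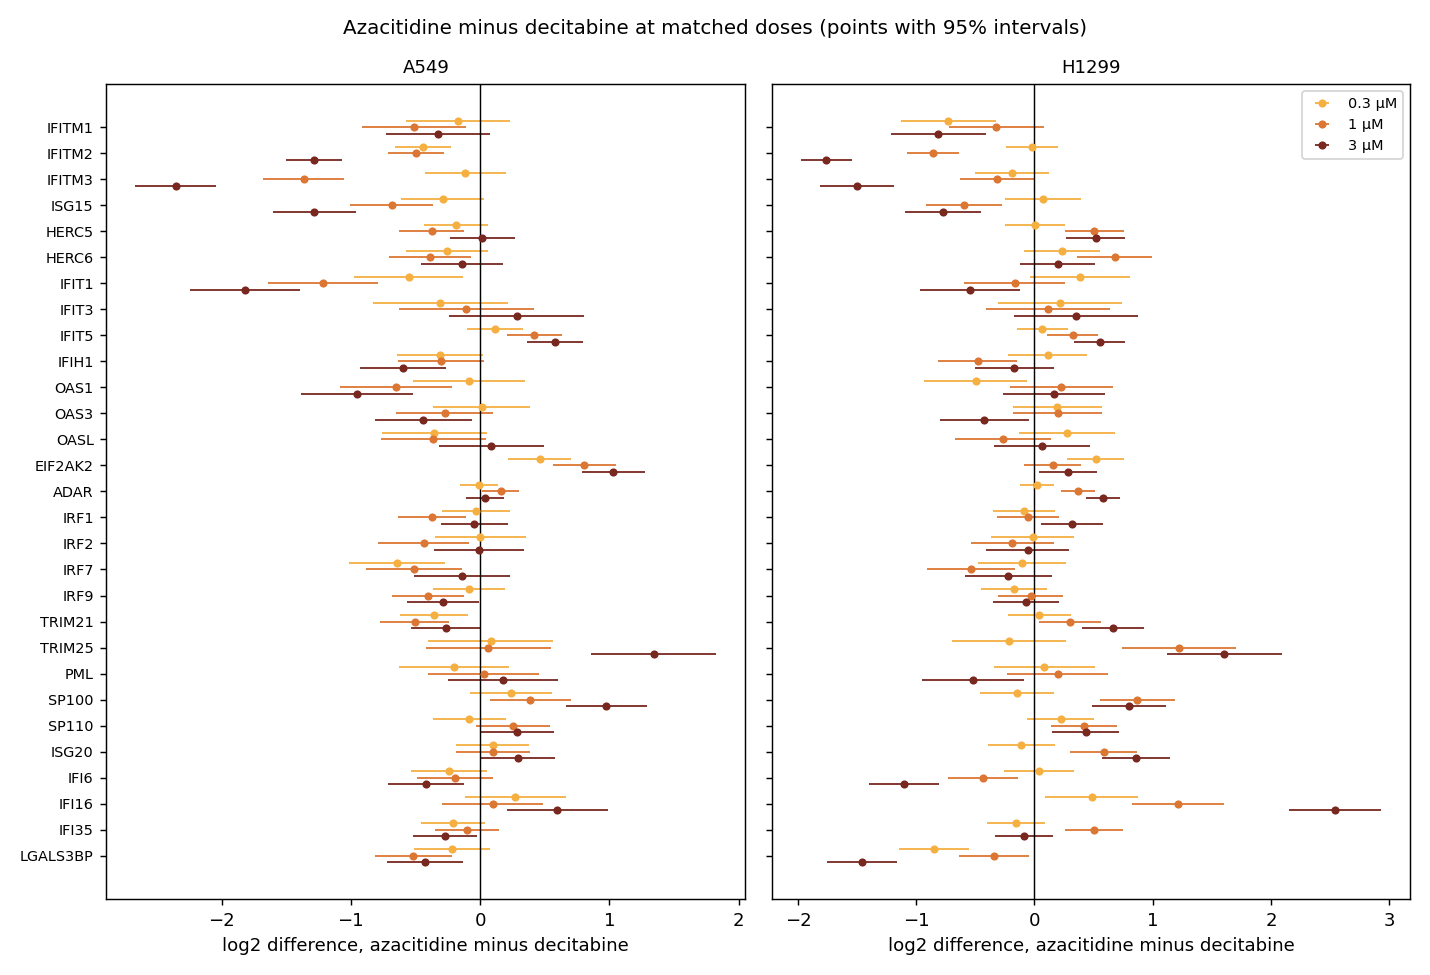
Azacitidine minus decitabine at 0.3, 1 and 3 µM for the 29 tested interferon-stimulated genes in A549 (left) and H1299 (right), as log2 differences with 95% intervals. Points at 3 µM lie farthest from 0 for IFITM3 and IFIT1 in A549, both lower with azacitidine, and for IFI16 in H1299, higher with azacitidine.

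More members were called between the highest and lowest dose of azacitidine than of decitabine, as were more of all genes. The shares of the members were 48.3% in A549 and 58.6% in H1299 with azacitidine, and 6.9% and 10.3% with decitabine. Between 3 and 0.3 µM of azacitidine, 8 members were higher and 6 lower at 3 µM in A549 (34.4% of all genes called, 21% higher), and 8 higher and 9 lower in H1299 (55.5%, 33.7% higher). For decitabine 2 were higher in A549 (8.87%, 5.67% higher), and 1 was higher and 2 lower in H1299 (9.93%, 5.67% higher). In A549 azacitidine at 3 µM minus 0.3 µM was -1.88 for IFITM3 and -0.99 for IFIT1, both lower at the higher dose, and 0.90 for TRIM25. In H1299 it was 2.05 for IFI16, 1.38 for TRIM25 and 1.17 for HERC5, and -1.51 for IFITM2, -1.29 for IFITM3 and -1.27 for LGALS3BP. With decitabine IFIH1 was higher at 3 µM in A549, 0.80, and HERC5 in H1299, 0.65. The A549 count for azacitidine was 8 or 9 when any of its 4 arrays was left out, that for decitabine 1 in 3 of 4 cases, and the H1299 count for decitabine 1 without decitabine 3 µM replicate 2. Of the 14 A549 calls for azacitidine 4 held in each alternative, 1 higher and 3 lower, and 6 were lost under quantile or median scaling. Whether the dose effect differed between the drugs was not tested.

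The untreated lines differed in most of these genes, as they did in most of all genes. With vehicle, 11 of 29 members were higher in A549 and 10 lower. That is 72.4% of the members, beside 65.3% of all genes called (32.4% higher). A549 had 31.4 and 43.6 for IFITM3, against 2181 and 2404 in H1299, a difference of -5.07 (SE 0.15, adjusted p = 1.78e-17). IFIH1 (-3.04), IFITM2 (-2.55) and ISG15 (-2.03) were also lower in A549, while OAS1 (3.13) and OAS3 (1.61) were higher. IFITM3, IFIH1, ISG15 and IFITM2, which rose with decitabine in A549, thus stood at a higher level in untreated H1299, where decitabine gave no call for them. ISG20 and TRIM21 also rose with decitabine in A549 without a decitabine call in H1299, but stood lower in untreated H1299. With vehicle ISG20 was at 179 and 168 in A549 and 77.8 and 97.8 in H1299, and TRIM21 at 198 and 188 against 121 and 132. Whether the untreated level bears on the response was not tested.

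The response at 3 µM differed between the lines for 9 members with azacitidine, 6 higher and 3 lower in A549 (31.4% of all genes, 13.9% higher). With decitabine it differed for 5, all higher in A549 (17.3%, 9.42% higher). The shares of the members were 31% and 17.2%, close to those over all genes. For decitabine, A549 minus H1299 was 2.16 (95% interval 1.72 to 2.60) for IFITM3 and 1.04 (95% interval 0.57 to 1.51) for IFIH1. The values for IFIT1 (1.14), ISG15 (0.72) and TRIM21 (0.67) lost their call without 1 array, IFIT1 and ISG15 without A549 vehicle replicate 2 (0.84 and 0.47) and TRIM21 without H1299 decitabine replicate 1 (0.58). ISG15 lost it as well without either A549 decitabine array (0.71 and 0.73), H1299 vehicle replicate 2 (0.67) or H1299 decitabine replicate 2 (0.65). The count was 3 without A549 vehicle replicate 2. For azacitidine the difference was -1.31 (95% interval -1.86 to -0.76) for IFI16 and -1.18 for OAS1, and 1.30 for IFITM3, 0.89 for IFI6, 0.87 for IFITM2 and 0.79 for EIF2AK2. Of the 9 azacitidine calls 6 held in each alternative, 4 higher and 2 lower. A positive value for IFITM3, IFI6 and IFITM2 stands for a deeper fall in H1299.

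The rest of the pathway was read from lists that were written by role and not by response. Of 13 tested interferon receptor and signalling genes, 3 were higher and 1 lower with decitabine at 3 µM in A549, and 3 were higher and 3 lower with azacitidine. In H1299 2 were higher and 1 lower with decitabine at 3 µM, and 4 and 4 with azacitidine. At 3 µM the shares of all genes called, against which these and the following counts are to be read, were 25.8% with decitabine and 38.3% with azacitidine in A549, and 30.9% and 53.9% in H1299. IFNGR2, a chain of the interferon gamma receptor, was at 0.49 with decitabine in A549 and -1.12 with azacitidine in H1299, and STAT3 at 0.51 and -0.43 with decitabine and azacitidine in A549. Of 12 sensors and adaptors, none was called with decitabine at 3 µM in A549 by limma (2 at an unadjusted p under 0.05) and 5 with azacitidine, while in H1299 6 were called with decitabine and 3 with azacitidine. MYD88, the adaptor of the Toll-like receptors, was at 1.05 and MAVS, the adaptor of RIG-I and MDA5, at -0.60 with decitabine in H1299.

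A further list of 27 tested interferon-inducible genes that are no members had calls in both directions, at shares close to those over all genes for decitabine and for azacitidine in H1299. With decitabine at 3 µM 6 were higher and 2 lower in A549, and 3 higher and 5 lower in H1299; with azacitidine at 3 µM 7 were higher and 6 lower in A549, and 9 higher and 6 lower in H1299. LAMP3, a lysosomal protein, was at 1.83 and 3.65 with azacitidine in A549 and H1299, and WARS1, a tryptophanyl-tRNA synthetase, at 1.02 and 1.79. Both are also known to respond to stress of the endoplasmic reticulum or to amino acid supply. GCH1, which makes tetrahydrobiopterin, was at 1.37 and 1.25 with decitabine in A549 and H1299. Median differences of this list at 3 µM were 0.18 and -0.05 with decitabine and 0.10 and 0.06 with azacitidine in A549 and H1299.

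Genes of class I antigen presentation are induced by both interferons and NF-kB. Of 16 tested, 8 were higher and none lower with decitabine at 3 µM in A549 (15% of all genes were higher), and 8 higher and none lower in H1299 (16.3%), with medians of 0.33 and 0.29, beside 0.01 and -0.01 over all genes. TAP1, the peptide transporter, was at 0.88 in A549 and 1.25 in H1299, and HLA-C at 0.72 and 0.52. HLA genes are near copies of each other, so their probe sets may share signal. With azacitidine at 3 µM 3 were lower and none higher in A549, and 6 lower and 4 higher in H1299, led in A549 by the chaperones PDIA3 (-1.33) and CALR (-1.14). Of 20 NF-kB and inflammatory genes 12 were higher and none lower with decitabine at 3 µM in H1299 (16.3% of all genes higher), among them the chemokines CCL20 (3.27) and CXCL1 (1.61), while in A549 6 were higher and 4 lower (15% of all genes higher). Cancer-testis genes, which promoter methylation can silence, were called higher for 11 of 14 with decitabine and 12 of 14 with azacitidine at 3 µM in A549 (15% and 22.1% of all genes), and for 4 and 10 of 14 in H1299 (16.3% and 32.3%), with MAGEB2 at 5.61 with decitabine in H1299. Not all of them were silent without drug, as MAGEA6 was above the array median on all 28 arrays.

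As a check on the samples, the epithelial keratins KRT8 and KRT18 were above the array median on all 28 arrays, EPCAM on 20, KRT19 on 17 and CDH1 on 11. Of these 5 epithelial markers, 3 were higher with decitabine at 3 µM in A549 and 4 in H1299, with EPCAM at 2.31 and 2.51, while with azacitidine 4 were lower in A549 (CDH1 at -1.46) and 1 in H1299. Their part in the results above was not tested. The leukocyte gene PTPRC, which encodes CD45, was above the array median on no array (0.584 to 29.7 over 3 probe sets). Of 14 leukocyte markers on the array 4 were tested, CD53, HCLS1, CORO1A and LAPTM5, above the array median on 14, 8, 4 and 3 arrays, and CD48 was above it on 1. At 3 µM HCLS1 with azacitidine and HCLS1 and CORO1A with decitabine were called higher in H1299. The arrays were scaled to a common 2% trimmed mean by the submitters, so a change in total RNA per cell cannot be told apart from no change.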

How the data were processed

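RNA of A549 and H1299 cells was hybridised to one-colour Affymetrix human gene arrays of 22277 probe sets, 2 for each of 14 groups. The deposited values are MAS5 signal intensities on a linear scale, per the submitters' processing notes, and all 28 arrays had a 2% trimmed mean between 500.125 and 500.159. Medians were 92.7 to 123. MAS5 combines perfect match and mismatch probes, so dim probe sets are noisy. No array image or background value was used here.

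Symbols came from the platform annotation, which gives 1 symbol for 19070 probe sets, several for 1043 and none for 2164. The members and all lists were chosen by role with earlier results of these data known. Probe sets above the array median on at least 2 arrays passed the filter, and the one of highest mean stood for its gene, 8024 genes in all. The log2(signal + 32) values were fitted in limma 3.58.1 (R 4.3.3) with lmFit and eBayes with an intensity trend, 1 mean per group over all 28 arrays and 14 residual degrees of freedom. The pseudocount draws differences of dim genes toward 0. All 27 comparisons were two-sided, with Benjamini-Hochberg adjustment over all genes within each and a threshold of 0.05. Fully described members were the 10 with the largest absolute difference among the called comparisons of a dose with its vehicle; array values of further members were added after their values were seen. Intervals are 95%.

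Alternatives changed the scaling, pseudocount, filter, probe set choice, samples in the fit, trend, replicate block and a quality covariate, and left out each array in turn. On simulated data for decitabine at 3 µM in A549 (8024 genes) the script recovered 53% of changes of 0.5 and 98% of changes of 1 (log2), with 3 false calls. The simulated noise was normal and independent between arrays, with no array effect, and 100 genes were changed by each size. In the data 2068 genes were called in that comparison, so these figures check the script and may not hold for the data. The genome build used by the submitters is not given in the sources used here.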

Additional observations from a re-analysis of the deposited data

Results flagged for a closer look

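The response to 3 µM of drug differed between A549 and H1299 for the following members by limma's test of the difference itself (response in A549 minus response in H1299, log2, adjusted over all genes). Over all genes 31.4% differed with azacitidine and 17.3% with decitabine. The shares of the members, 31% and 17.2%, were close to these. With azacitidine the difference was -1.311 for IFI16 (adjusted p = 0.00074), -1.176 for OAS1 (adjusted p = 0.00443), 1.303 for IFITM3 (adjusted p = 8.64e-05), 0.8691 for IFITM2 (adjusted p = 0.000143), 0.8871 for IFI6 (adjusted p = 0.00189), 0.7889 for EIF2AK2 (adjusted p = 0.00103) and 0.7388 for LGALS3BP (adjusted p = 0.00788). The differences of IFIH1, 0.6205 (adjusted p = 0.0417), and ADAR, -0.2862 (adjusted p = 0.0309), lost their call where an array was left out. IFIH1 lost it without any of the 8 arrays (0.57 to 0.67) and ADAR without any of 5 of the 8 (-0.30 to -0.24). Of the 9 calls with azacitidine 6 held in each alternative, 4 higher and 2 lower, so IFIH1 and ADAR were not the only ones lost.

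With decitabine all 5 were higher in A549. The difference was 2.159 for IFITM3 (adjusted p = 3.92e-07), 1.141 for IFIT1 (adjusted p = 0.00859), 1.043 for IFIH1 (adjusted p = 0.00287), 0.7217 for ISG15 (adjusted p = 0.0253) and 0.6712 for TRIM21 (adjusted p = 0.0126). Leaving out 1 array ended the calls of IFIT1 (0.84 without A549 vehicle replicate 2), TRIM21 (0.58 without H1299 decitabine replicate 1) and, without any of 5 of the 8 arrays, ISG15 (0.47 to 0.73). The untreated lines stood apart for most of these genes, and the part of that difference in the response was not tested.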

How the results depend on the processing

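With 2 arrays per group, counts of called members moved when 1 array was left out. Over each array in turn, the count against vehicle ran from 1 to 2 in A549 with azacitidine at 0.3 µM, 2 to 7 at 1 µM and 10 to 12 at 3 µM, from 2 to 4, 5 to 8 and 10 to 11 with decitabine at the same doses, from 0 to 0, 10 to 12 and 14 to 19 in H1299 with azacitidine, and from 5 to 6, 3 to 5 and 3 to 5 in H1299 with decitabine. For azacitidine minus decitabine it ran from 0 to 1, 7 to 12 and 10 to 13 at the 3 doses and 18 to 20 over doses in A549, and from 1 to 3, 10 to 13, 15 to 16 and 17 to 18 in H1299. For 3 against 0.3 µM it ran from 8 to 9 (azacitidine) and 1 to 2 (decitabine) in A549 and from 14 to 17 and 1 to 2 in H1299. Between lines it ran from 7 to 8 for the azacitidine response, 3 to 5 for the decitabine response and 17 to 18 for vehicle. The lone array left in a group was assumed to vary like the other groups.

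The 10 fully described members kept their direction and their side of the threshold in each alternative run for them. With a pseudocount of 1 and with the larger one the sizes moved to 3.01 and 0.40 for IFIH1 (A549, decitabine at 3 µM), -3.30 and -0.54 for IFIT1 (A549, azacitidine at 3 µM) and -3.01 and -0.53 for LGALS3BP (H1299, azacitidine at 3 µM). A pseudocount of 1 moved none of the 27 counts past 1.5 times. Azacitidine at 0.3 µM gave 2 calls in A549 under median centring, quantile scaling, a larger pseudocount, no trend or all kept probe sets, and in H1299 2 under median centring, quantile scaling or no trend and 0 without the filter. Quantile scaling gave 7 for decitabine at 0.3 µM in A549, and median centring 9 for azacitidine at 3 against 0.3 µM in A549. With the array's 25th percentile as a covariate, azacitidine at 1 µM in A549 gave 3 and decitabine at 3 against 0.3 µM in A549 gave 4. With arrays of 1 line alone the count was 0 for azacitidine minus decitabine at 0.3 µM in A549, 1 for decitabine at 3 against 0.3 µM in A549 and 5 for decitabine at 0.3 µM in H1299. A filter at the 75th percentile left 8 members and so lowered 23 counts: against vehicle to 2 and 5 in A549 with azacitidine at 1 and 3 µM, 5 and 6 with decitabine, 0, 6 and 8 in H1299 with azacitidine at the 3 doses and 1, 1 and 3 with decitabine; between drugs to 6, 6 and 6 in A549 at 1 µM, 3 µM and over doses and 1, 5, 8 and 7 in H1299; for 3 against 0.3 µM to 5 and 1 in A549 and 7 in H1299 with azacitidine; between lines to 4, 2 and 8. For the other changes the cause was not tested.

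Median centring moved the median of all genes by over 0.1 in 5 comparisons, among them azacitidine at 1 µM in A549 (0.13 against -0.01). The members' own median, near 0 there, changed sign with it (0.13 against -0.002). The replicate number as a block moved no count past 1.5 times; decitabine at 3 µM in A549 gave 12 calls with the replicate block. Deviations of same-numbered arrays correlated between -0.245 and 0.266 over 91 pairs of groups (median 0.0163), so the numbers were not taken to pair the arrays. Signals below the array median, which hold 15 of 44 members, limit what these arrays can show.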
